A study of Mus musculus with 2 samples.

Results

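Sarcomere genes, which encode the thick and thin filaments of the contractile apparatus and the proteins that anchor them, were followed in scRNAseq of the mouse rib callus at 4 dpi (days post injury). The group was set by a list of 40 genes out of 31054 features in the count tables, and every listed gene was present. The list holds 5 embryonic isoforms, 13 adult fast isoforms, 10 slow isoforms and 12 members that fibre types share. The callus is the repair tissue that fills the gap after a large-scale rib resection. The study compared 1 control library (*Sox9*:CreER;*R26*:tdT;*Smo* flox/+) with 1 *Smo* cKO library (*Sox9*:CreER;*R26*:tdT;*Smo* flox/flox), each from the pooled calluses of 3 young adult mice. Animals of both genotypes carried the CreER driver, the tdTomato reporter and at least 1 floxed *Smo* allele, and both were given tamoxifen in the week before surgery. *Sox9*:CreER is active in Sox9+ lineage cells, and *Smo* encodes the transducer of the Hedgehog signal. The dissection left most of the adjacent skeletal muscle behind, and dissociated cells passed a 40 micron filter and a dead cell removal step before loading. With 1 library per genotype no difference between genotypes has a replicate check, and the intervals given cover counting error only.

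The sarcomere is built from thick filaments of myosin and thin filaments of actin, with tropomyosin and the troponins setting when the filaments interact in response to calcium, titin and nebulin acting as molecular rulers, and alpha-actinin tying thin filaments together at the Z-disc. Most of these proteins come as families of isoforms. Regenerating muscle fibres are known to repeat developmental isoform use, with embryonic (*Myh3*) and perinatal (*Myh8*) myosin heavy chains and the cardiac type alpha-actin *Actc1* made before the adult fast or slow forms. Satellite cells, the muscle stem cells, express *Pax7*, and their progeny turn on *Myog*, a transcription factor of terminal muscle differentiation, as they leave the cell cycle.

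The genes of 5 of the 6 myosin heavy chains lie side by side on chromosome 11, all on the plus strand, in the order *Myh3*, *Myh2*, *Myh1*, *Myh4* and *Myh8*, and promoters of 3 are shown because these neighbours differed widely in level in these cells. *Myh3* spans chr11:67078300-67102291 and *Myh8* spans chr11:67277124-67308634 (GENCODE vM21, mm10). The 250 bases before the RefSeq transcription start (GRCm38.p6) are given 5′ to 3′ for the most abundant chain, *Myh3* (chr11:67078050-67078299, plus strand), the next, *Myh8* (chr11:67276874-67277123, plus strand), and the least abundant, *Myh2* (chr11:67170777-67171026, plus strand). Capitals mark E-boxes, CANNTG, the letters that MyoD-family factors such as Myog recognise.
*Myh3*: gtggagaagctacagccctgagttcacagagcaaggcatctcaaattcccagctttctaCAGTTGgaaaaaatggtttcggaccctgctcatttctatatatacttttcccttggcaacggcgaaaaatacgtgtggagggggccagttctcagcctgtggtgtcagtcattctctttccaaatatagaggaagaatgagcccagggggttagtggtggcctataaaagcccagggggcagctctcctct
*Myh8*: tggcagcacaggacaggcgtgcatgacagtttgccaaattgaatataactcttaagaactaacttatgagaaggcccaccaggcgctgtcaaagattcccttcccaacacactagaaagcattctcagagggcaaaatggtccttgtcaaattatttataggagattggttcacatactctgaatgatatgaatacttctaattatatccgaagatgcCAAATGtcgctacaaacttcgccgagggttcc
*Myh2*: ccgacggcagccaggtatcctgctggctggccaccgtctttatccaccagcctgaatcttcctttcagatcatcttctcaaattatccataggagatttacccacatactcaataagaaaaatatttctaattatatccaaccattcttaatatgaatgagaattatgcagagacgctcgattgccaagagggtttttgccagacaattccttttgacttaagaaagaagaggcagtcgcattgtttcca
*Myh3* and *Myh8* each had 1 E-box in this window and *Myh2* had none. *Myh4*, another chain of low level, had the E-box CAGCTG in its window, so an E-box did not mark the abundant chains alone. The alpha-actins *Actc1* (chr2:114052876-114053125, minus strand) and *Acta1* (chr8:123894776-123895025, minus strand) are shown as the most abundant sarcomeric actins, here with the CArG box, the binding motif of serum response factor, in capitals.
*Actc1*: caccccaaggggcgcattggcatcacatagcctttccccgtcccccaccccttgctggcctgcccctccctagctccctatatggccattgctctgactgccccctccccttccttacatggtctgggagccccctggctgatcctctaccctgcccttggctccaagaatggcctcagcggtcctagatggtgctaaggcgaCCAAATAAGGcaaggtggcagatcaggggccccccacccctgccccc
*Acta1*: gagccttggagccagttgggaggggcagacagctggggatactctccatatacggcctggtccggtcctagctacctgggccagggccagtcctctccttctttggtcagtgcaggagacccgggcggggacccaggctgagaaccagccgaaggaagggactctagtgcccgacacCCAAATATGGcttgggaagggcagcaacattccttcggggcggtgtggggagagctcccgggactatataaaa
The box began 47 bases before the start in *Actc1* and 73 bases before it in *Acta1*. In these windows *Actc1* held no E-box and *Acta1* held 2. Of the 40 members, 34 had a RefSeq promoter in the table used, and with both strands searched 6 of them (17.6%) held a CArG box against 1.40% of 27025 genes in windows of the same length. The same count was 29 of 34 (85.3%) against 66.0% for CANNTG, 12 of 34 (35.3%) against 12.8% for CAGCTG, which is itself a CANNTG match, 8 of 34 (23.5%) against 17.1% for CACCTG, another such match, and 6 of 34 (17.6%) against 3.01% for the MEF2 site. The members with a CArG box were *Actc1*, *Acta1*, *Myl3*, *Myh4*, *Ldb3* and *Myom1*, both abundant and low ones. These matches are descriptions of the letters and not of binding.

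Cell Ranger called 10747 barcodes in the control and 10512 in *Smo* cKO, and 10057 and 9507 remained with at least 200 genes and under 10% mitochondrial UMIs, at medians of 8367 and 9092 UMIs. Muscle cells were those with UMIs of at least 2 of 10 muscle markers (*Pax7*, *Myf5*, *Myod1*, *Myog*, *Cdh15*, *Fgfr4*, *Msc*, *Chrna1*, *Mymk* and *Mymx*) and fewer than 7 of 10 connective markers, and no sarcomere gene was among the markers. This gave 245 control and 466 *Smo* cKO muscle cells, which were split by their *Myog* UMIs. Cells without *Myog* numbered 112 and 197, cells with 1 *Myog* UMI numbered 15 and 53, and cells with 2 or more, called *Myog*-high here, numbered 118 and 216. The markers moved along this split in both libraries. *Pax7* stood at 91.2 CPM (UMIs per 1000000 UMIs of the pooled cells) in control and 97.8 CPM in *Smo* cKO cells without *Myog*, against 16.9 and 16.0 CPM in *Myog*-high cells. *Mymk*, a membrane protein required for myoblast fusion, ran the other way, from 4.87 and 7.48 CPM to 536 and 530 CPM. *Myog* itself reached 2393 CPM in *Myog*-high control and 4165 CPM in *Myog*-high *Smo* cKO cells, so the pools are not at the same *Myog* level.

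Some features of the libraries bear on all results. Between the libraries 613 barcodes were shared, among them 6 of 118 control and 9 of 216 *Smo* cKO *Myog*-high cells and 8 of the 15 control cells with 1 *Myog* UMI, and values without them are given where they differ. The control pool with 1 *Myog* UMI was also shallow, at a median of 847 UMIs per cell against 9345 in *Myog*-high cells. Muscle marker cells with 7 or more connective markers (242 control, 494 *Smo* cKO, at medians of 24489 and 25059 UMIs) were kept apart, since doublets were not called. *Smo* was counted at 13.8 CPM (18 UMIs) in control and 2.05 CPM (5 UMIs) in *Smo* cKO *Myog*-high cells, and at 19.1 and 12.3 CPM in connective cells. Whether the counted tag lies in the deleted part of *Smo* is not given in the sources used here, so these values do not check the deletion. Reporter UMIs were found in 1 control and 6 *Smo* cKO *Myog*-high cells (0.766 and 2.87 CPM), against 0.584 and 1.39 CPM in connective cells. *Sox9* UMIs were found in 15 of 112 and 31 of 197 muscle cells without *Myog*, and in 20 of 118 and 18 of 216 *Myog*-high cells. In connective cells they were found in 1731 of 5398 and 1515 of 4327. Whether *Smo* was deleted in muscle cells was not tested.

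Sarcomere genes took up 11.4 times as much of the RNA in *Myog*-high cells than in muscle cells without *Myog* in the control, and 8.63 times as much in *Smo* cKO. Summed over all 40 genes, the level was 2428 CPM without *Myog*, 15403 CPM with 1 *Myog* UMI and 27614 CPM in *Myog*-high control cells. The corresponding *Smo* cKO levels were 2532, 4165 and 21836 CPM. The log2 difference between *Myog*-high cells and cells without *Myog* was 3.51 (95% interval 3.44 to 3.57) in the control and 3.11 (3.06 to 3.16) in *Smo* cKO, while the median over all genes tested was -0.07 and -0.06. With each cell thinned to 2000 UMIs before its *Myog* level was read, the differences were 1.85 and 2.95, so the order of the libraries turned. The step was steepest for the embryonic isoforms, at 6.15 in the control and 5.87 in *Smo* cKO, followed by the adult fast isoforms at 5.56 and 4.65, the slow isoforms at 3.24 and 3.57, and the shared members at 1.96 and 1.59. At 1 *Myog* UMI the libraries were far apart, and 1 control cell decided the level there, since without the cell with the most sarcomere UMIs it fell from 15403 to 5474 CPM. The *Smo* cKO level also leaned on 1 cell, of 7913 UMIs, of which 10.3% were of sarcomere genes. That cell held 175 of the 203 *Acta1*, 182 of the 210 *Mylpf* and 96 of the 109 *Myl4* UMIs of its pool. Values at 1 *Myog* UMI are therefore not read as a stage.

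**Figure D1:**
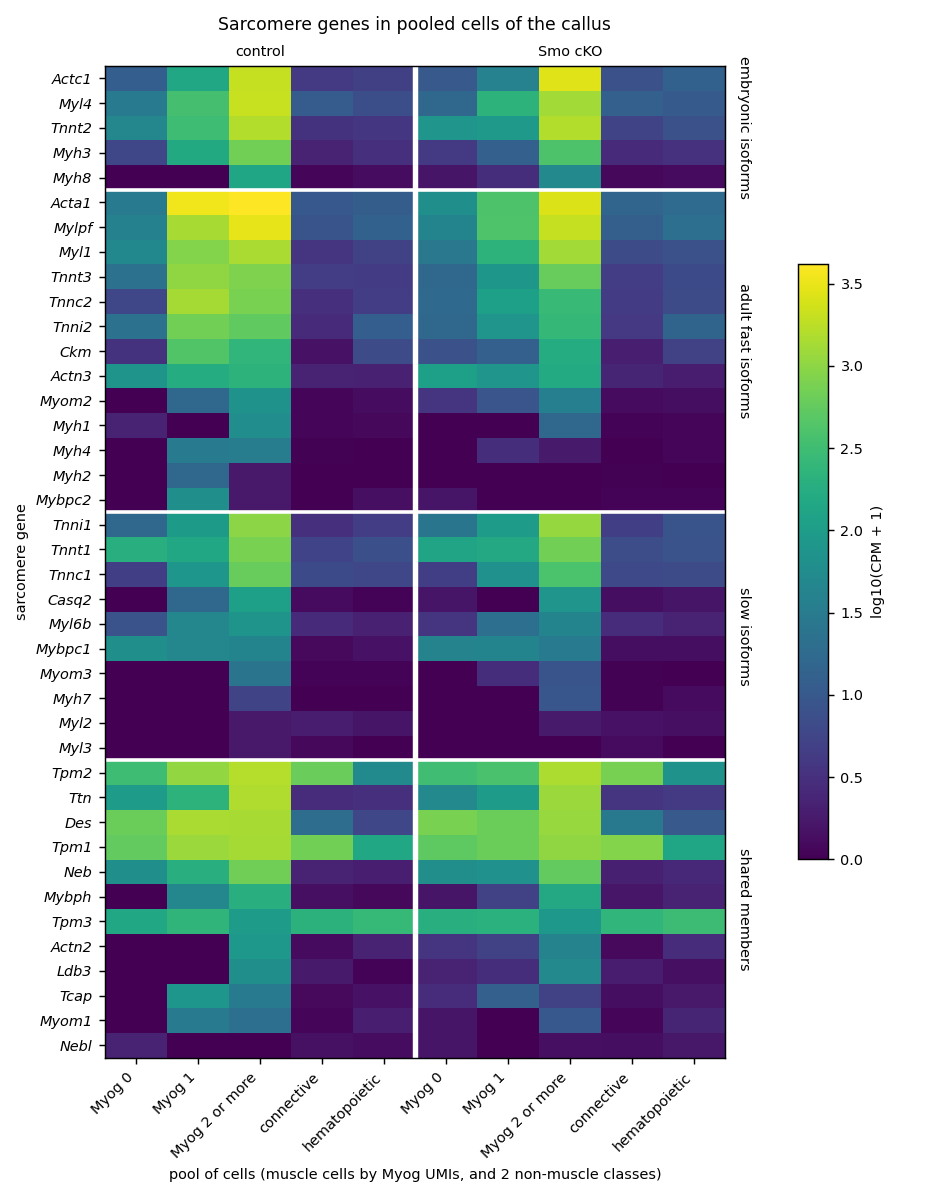
Level of each of the 40 sarcomere genes, as log10(CPM + 1) in color, in muscle cells with 0, 1 and 2 or more *Myog* UMIs and in connective and hematopoietic cells, for the control (left) and *Smo* cKO (right) library, with genes grouped by list. Most rows are brightest in the *Myog*-high columns, although several adult fast rows of the control are brighter at 1 *Myog* UMI (*Tnnt3*, 1044 against 815 CPM), and *Tpm1*, *Tpm2* and *Tpm3* are also bright outside muscle.

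A gene was called higher where its CPM was at least 2-fold higher, among genes with at least 50 CPM in 1 of the pools compared. In the control 28 of the 40 members were called higher in *Myog*-high cells than in cells without *Myog*, beside 10.4% of the 2507 genes tested. In the *Smo* cKO library 21 were called higher, beside 8.66% of 2611 genes. The minimum was reached by 30 members in the control and 24 in *Smo* cKO, so the 2 counts differ partly through it. A member could pass the minimum through the *Myog*-high pool alone, so these counts describe the list and do not test it. *Tpm3*, a tropomyosin used in many cell types, ran against the rest, with 140 CPM without *Myog* and 99.6 CPM in *Myog*-high control cells, and 189 and 85.3 CPM in *Smo* cKO (log2 difference -1.15, -1.41 to -0.89). *Mybpc1*, the slow myosin-binding protein C, was at 62.0 and 41.4 CPM in the control and at 40.5 and 28.7 CPM in *Smo* cKO, and neither difference reached 2-fold. The other members with at least 50 CPM in a pool were more abundant in *Myog*-high cells, although *Actn3* (108 and 163 CPM) and *Des* (770 and 1155 CPM) stayed under 2-fold in *Smo* cKO.

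Cells within the *Myog*-high pool differed widely. Sarcomere UMIs made up a median of 1.52% of a control *Myog*-high cell (lowest 0.0916%, highest 16.8%) and 1.18% of a *Smo* cKO cell (0.123% to 13.7%). In muscle cells without *Myog* the medians were 0.194% and 0.227%. The share was 1% or more in 57.6% of control and 56.0% of *Smo* cKO *Myog*-high cells, but in 1.79% and 1.02% of cells without *Myog*. A few cells held much of the signal, since 50% of the members' UMIs in the *Myog*-high pools came from 12 control cells (of 118) and 25 *Smo* cKO cells (of 216). Cells with 10 or more *Myog* UMIs had medians of 1.74% and 1.52%, and cells with 2 to 9 *Myog* UMIs had medians of 0.592% and 0.439%. Depth moved with this split, at medians of 10051 and 10171 UMIs against 7641 and 7443 UMIs, and its part in the difference was not tested.

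**Figure D2:**
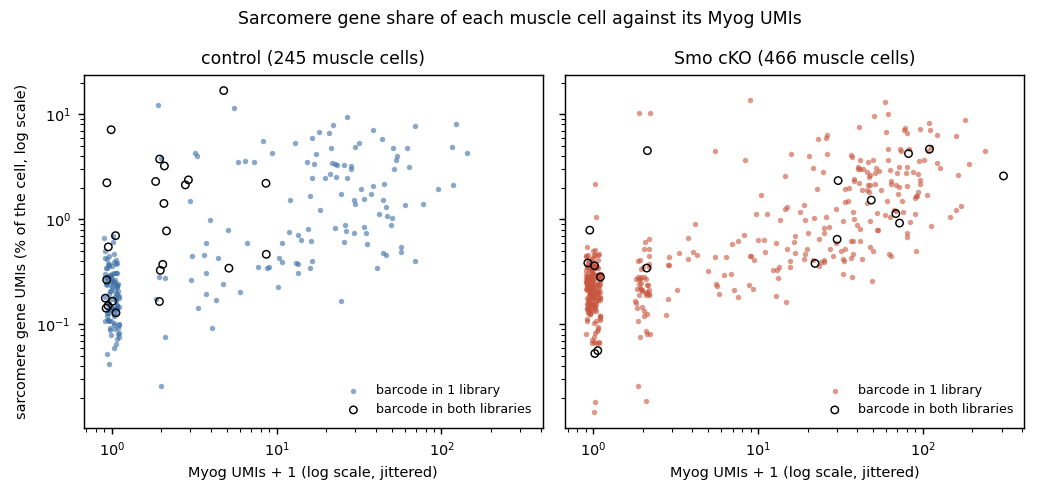
Share of each muscle cell's UMIs that were of the 40 sarcomere genes (log scale, %) against its *Myog* UMIs plus 1 (log scale, jittered sideways), with 1 point per cell, for 245 control and 466 *Smo* cKO cells, open circles marking barcodes found in both libraries and cells with a share of 0 not drawn. Cells without *Myog* lie mostly below 1%, and *Myog*-high cells spread from about the same low level to over 10%.

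Among the myosin heavy chains, the motor proteins of the thick filament, *Myh3* led by a wide margin. Its level was 4.87, 156 and 710 CPM at 0, 1 and 2 or more *Myog* UMIs in the control, and 3.12, 11.8 and 405 CPM in *Smo* cKO. *Myh8* was not counted in control cells without *Myog* or with 1 *Myog* UMI and stood at 139 CPM in *Myog*-high cells, with 0.623, 1.97 and 48.8 CPM in *Smo* cKO. The 4 adult chains were low, and the order among them rested on few UMIs. *Myh1* (fast IIX) had 77 UMIs in control and 37 in *Smo* cKO *Myog*-high cells (59.0 and 15.2 CPM), with 1 and 0 UMIs in cells without *Myog* and none in cells with 1 *Myog* UMI. *Myh4* (fast IIB) had 42 and 2 UMIs in *Myog*-high cells (32.2 and 0.820 CPM), 2 and 1 UMIs at 1 *Myog* UMI, and none without *Myog*. *Myh7* (slow type I) had 6 and 20 UMIs (4.60 and 8.20 CPM) in *Myog*-high cells and none at 0 or 1 *Myog* UMI. *Myh2* (fast IIA) had 1 control UMI in *Myog*-high cells and 1 in cells with 1 *Myog* UMI, and none in *Smo* cKO muscle cells.

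Together *Myh3* and *Myh8* made up 89.8% of the heavy chain UMIs of control *Myog*-high cells (95% interval 88.0 to 91.4, exact Clopper-Pearson, 1234 UMIs in 62 cells) and 94.9% in *Smo* cKO (93.5 to 96.1, 1166 UMIs in 102 cells). *Myh3* alone was 75.0% (72.5 to 77.4) and 84.7% (82.5 to 86.8). A single control cell with a barcode in both libraries held 53.3% of the *Myh8*, 51.9% of the *Myh1* and 92.9% of the *Myh4* UMIs of its pool, and without it the control share of *Myh3* and *Myh8* was 95.1%. With the upper limit of 2000 genes per cell that the study applied, the shares were 95.3% (89.3 to 98.5, 106 UMIs) and 77.8% (66.4 to 86.7, 72 UMIs), so the order of the libraries turned. The *Smo* cKO share under this limit leaned on 1 cell. Of its 72 UMIs 13 were of *Myh7*, and 1 cell held 12 of the 20 *Myh7* UMIs of the full pool. *Myh3* was found in 58 control and 95 *Smo* cKO *Myog*-high cells, and of the cells with *Myh8*, 23 of 25 (control) and 17 of 19 (*Smo* cKO) also had *Myh3*. Likewise 14 of 16 and 20 of 25 cells with an adult chain also had *Myh3*. In the other direction, 23 of 58 and 17 of 95 cells with *Myh3* had *Myh8*, and 14 of 58 and 20 of 95 had an adult chain.

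**Figure D3:**
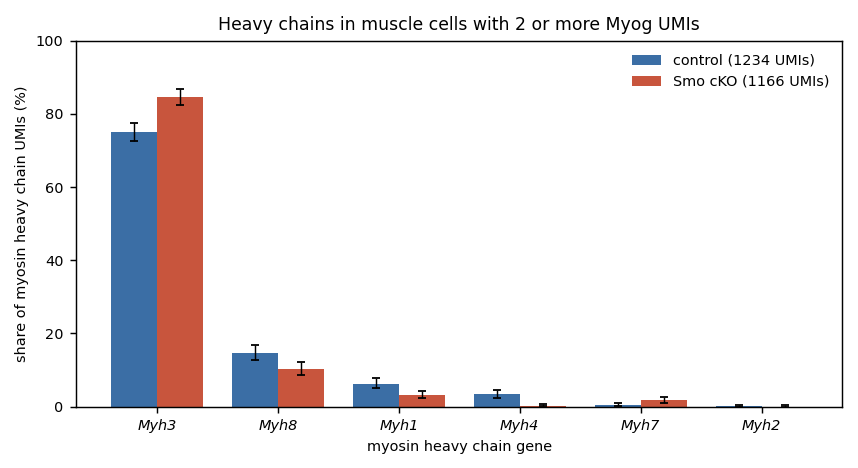
Share of each myosin heavy chain among the heavy chain UMIs of *Myog*-high muscle cells (%), for the control (blue, 1234 UMIs) and *Smo* cKO (red, 1166 UMIs) library, with exact 95% counting intervals. *Myh3* makes up 75.0% and 84.7% and no adult chain exceeds 6.24%.

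The other embryonic isoforms were more abundant than the heavy chains. A UMI stands for 1 captured RNA molecule whatever its length, so levels were compared between genes without dividing by length. *Actc1*, the cardiac type alpha-actin, was at 10.9, 140 and 2021 CPM at 0, 1 and 2 or more *Myog* UMIs in the control and at 9.35, 39.3 and 2774 CPM in *Smo* cKO, which made it the member with the steepest rise there (log2 difference 8.21, 7.49 to 9.05) among those with UMIs in both pools. *Myl4*, the embryonic and atrial essential light chain, stood at 29.2, 358 and 2027 CPM and at 15.6, 214 and 1315 CPM. *Tnnt2*, the cardiac type troponin T, was already at 46.2 and 76.7 CPM in cells without *Myog*, at 311 and 88.5 CPM with 1 *Myog* UMI, and at 1599 and 1603 CPM in *Myog*-high cells. In *Myog*-high cells the interval of the difference between the libraries included 0 for *Tnnt2* and not for the other embryonic isoforms.

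Members of the fixed adult fast list were present in the same pools, and their sum was not low. Of the list's 14913 UMIs in control *Myog*-high cells, *Acta1*, *Mylpf* and *Myl1* held 5407, 4021 and 1891, so the sum mostly follows these genes. *Acta1*, the adult skeletal alpha-actin, was the most abundant member in control cells with *Myog*, at 30.4, 3458 and 4144 CPM, and reached 62.9, 399 and 2690 CPM in *Smo* cKO. The fast regulatory light chain *Mylpf* stood at 37.7, 1371 and 3081 CPM and at 42.4, 413 and 1978 CPM. The fast essential light chain gene *Myl1* was at 47.4, 888 and 1449 CPM and at 27.4, 220 and 1319 CPM. Fast troponin T, *Tnnt3*, was at 21.9, 1044 and 815 CPM and at 15.6, 80.7 and 602 CPM. *Acta1*, the fast light chains and the fast troponins were thus abundant in pools where no adult fast heavy chain exceeded 59.0 CPM. The name of the list was fixed beforehand, and whether its genes are limited to adult fast fibres was not tested. *Tnnc2* and *Tnni2* (fast troponins C and I), *Ckm* (muscle creatine kinase), *Actn3* (fast alpha-actinin) and *Myom2* (an M-band protein) ranged from 68.2 to 771 CPM in control and from 34.8 to 282 CPM in *Smo* cKO *Myog*-high cells. *Mybpc2*, the fast myosin-binding protein C, had 1 UMI in the control pool and 0 in the *Smo* cKO pool.

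Slow isoforms divided in the same way. The slow troponins *Tnni1* (15.8, 93.4 and 982 CPM in the control; 24.3, 96.4 and 1120 CPM in *Smo* cKO) and *Tnnc1* (3.65, 77.9 and 606 CPM; 3.74, 66.9 and 395 CPM) were low before *Myog* and abundant with it. *Tnnt1*, the slow troponin T, was at 190 and 129 CPM already in cells without *Myog*, at 140 and 153 CPM with 1 *Myog* UMI, and at 783 and 708 CPM in *Myog*-high cells. *Casq2*, a calsequestrin that binds calcium in the sarcoplasmic reticulum, had 0 and 1 UMIs without *Myog*, 1 and 0 UMIs with 1 *Myog* UMI, and 110 and 75.8 CPM in *Myog*-high cells. *Myl6b* (72.8 and 41.8 CPM), *Mybpc1* and *Myom3* (23.8 and 7.79 CPM) were lower. The ventricular and slow light chains *Myl2* (1 and 2 UMIs) and *Myl3* (1 and 0 UMIs) were near absent from *Myog*-high cells, as was slow *Myh7*.

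Paired isoforms gave the balance within a pool, which no scaling of the pools can change. *Actc1* was 32.8% of the alpha-actin UMIs of *Actc1* and *Acta1* in control *Myog*-high cells (31.8% at the lower bound) and 50.8% in *Smo* cKO. *Tnnt2* was 66.3% and 72.7% of the sum with *Tnnt3*, and *Myl4* was 58.3% and 49.9% of the sum with *Myl1*. Of the slow and fast troponin I UMIs 64.1% and 81.2% were slow *Tnni1*, and of the troponin C UMIs 44.0% and 58.3% were slow *Tnnc1*. The embryonic or slow form was thus the larger part in *Smo* cKO in 4 of these 5 pairs, and the smaller in the light chain pair. Part of this came from a single control cell with many fast isoform UMIs, since without the cell with the most sarcomere UMIs in each pool *Tnnc1* was 56.8% and 59.1%, *Tnni1* 71.6% and 82.4%, and *Actc1* 34.7% and 52.1% of its pair. With the upper limit of 2000 genes the alpha-actin balance no longer differed in this way, with *Actc1* at 58.5% (55.1 to 61.9) and 56.3% (53.2 to 59.4), while the other pairs kept their direction. For *Tnnt2* the difference was then small beside its intervals, at 76.5% (72.1 to 80.5) and 78.2% (74.7 to 81.4). Reads of near-identical paralogues can be lost or misassigned in alignment, and for the alpha-actins and the clustered heavy chains this was not tested.

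Some shared members were already abundant without *Myog*. *Des*, the muscle intermediate filament protein, was at 634, 1417 and 1406 CPM at 0, 1 and 2 or more *Myog* UMIs in the control and at 770, 630 and 1155 CPM in *Smo* cKO. *Ttn*, the giant elastic ruler of the sarcomere, stood at 99.7, 218 and 1527 CPM and at 49.9, 100.3 and 1202 CPM. The tropomyosins *Tpm2* (315, 1059 and 1626 CPM; 326, 380 and 1484 CPM) and *Tpm1* (564, 1199 and 1336 CPM; 524, 635 and 1054 CPM) rose less. *Neb*, the thin filament ruler, reached 677 and 554 CPM, and *Mybph*, *Actn2*, *Ldb3*, *Tcap* and *Myom1* ranged from 19.9 to 193 CPM in control and from 4.10 to 153 CPM in *Smo* cKO *Myog*-high cells. Without *Myog* these 5 members had 0 UMIs in the control and 1 to 4 UMIs each in *Smo* cKO. *Myom1* shares its strand and part of its locus with *Gm26561*, and counts of the pair are uncertain. *Nebl*, the nebulin relative of heart muscle, had 0 and 1 UMIs.

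A small set of members was present in muscle cells without *Myog*. In those cells *Des* stood at 45.1% (control) and 66.7% (*Smo* cKO) of its *Myog*-high level, *Actn3* at 33.7% and 66.6%, *Tnnt1* at 24.2% and 18.2%, *Neb* at 9.16% and 10.9%, and *Ttn* at 6.53% and 4.15%. At the other end, *Actc1* was at 0.542% and 0.337%, *Myh3* at 0.686% and 0.769%, and *Tnnc1* at 0.602% and 0.947%. Levels of the early members were well above those of non-muscle cells of the same library. *Mybpc1* was 222-fold and 115-fold higher in muscle cells without *Myog* than in non-muscle cells, *Actn3* 58.5-fold and 82.6-fold, *Neb* 52.8-fold and 52.9-fold, *Ttn* 52.0-fold and 18.9-fold, *Tnnt1* 41.1-fold and 20.2-fold, and *Des* 35.0-fold and 29.2-fold. *Tnnc1* was not above its level in non-muscle cells there, at 3.65 against 5.34 CPM and 3.74 against 5.40 CPM, on 3 and 6 UMIs. In each library 9 members reached the minimum of 50 CPM in this comparison. By the 2-fold rule 6 of the 40 members were higher in the control (6.61% of 2785 genes) and 6 in *Smo* cKO (6.05% of 2812 genes). In the control these were the 6 just named. In *Smo* cKO *Mybpc1* (40.5 CPM) and *Ttn* (49.9 CPM) missed the minimum of 50 CPM, and *Acta1* (62.9 against 14.7 CPM) and *Tnnt2* (76.7 against 5.20 CPM) were called with the other 4. Non-muscle cells were mostly connective and hematopoietic. Among them, mural cells (27 control, 23 *Smo* cKO) held *Des* at 464 and 355 CPM. *Tnnt2* was at 85.5 and 139 CPM in mural cells (19 and 31 UMIs), above its level in muscle cells without *Myog*. In troponin T UMIs of *Tnnt1* and *Tnnt3*, slow *Tnnt1* was 89.7% and 89.2% in cells without *Myog* and 49.0% and 54.0% in *Myog*-high cells.

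**Figure D4:**
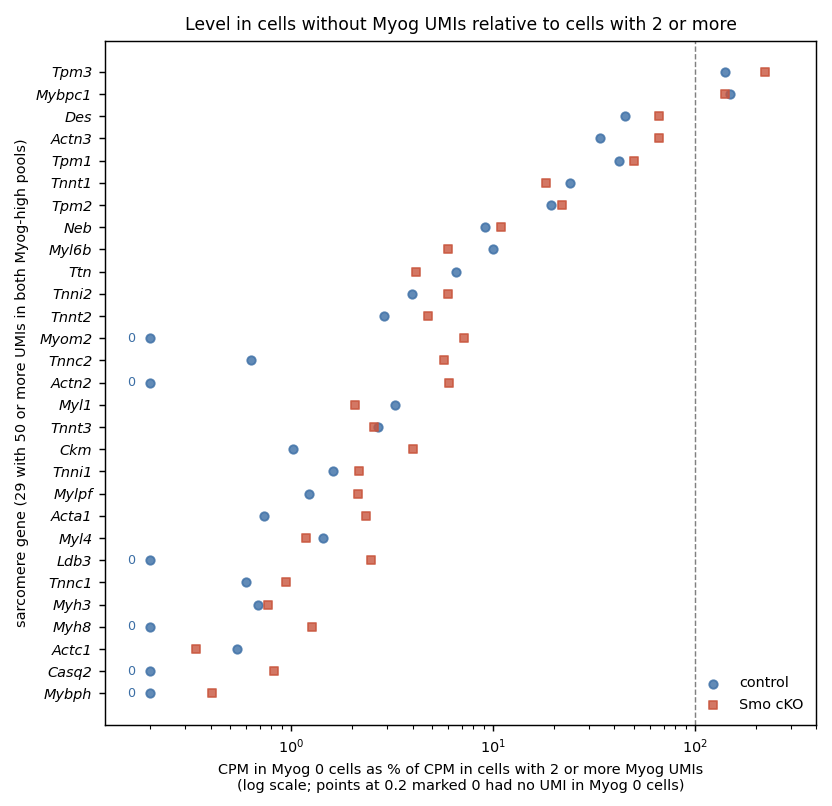
Level in muscle cells without *Myog* UMIs as a percentage of the level in *Myog*-high cells (log scale), for the 29 sarcomere genes with at least 50 UMIs in the *Myog*-high pool of both libraries, a choice that favors genes high there (circles, control; squares, *Smo* cKO; points marked 0 had no UMI without *Myog*). *Des*, *Actn3*, *Tpm1*, *Tnnt1* and *Tpm2* lie to the right, *Actc1*, *Myh3* and *Mybph* to the left, and only *Tpm3* and *Mybpc1* exceed 100%.

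Free RNA from broken cells is known to put some UMIs of one cell type into the others. Without the 3 tropomyosins, which are known from many non-muscle cells, the other 37 members summed to 85.3 CPM in control and 123 CPM in *Smo* cKO connective cells, and to 24552 and 19214 CPM in *Myog*-high cells. Against all non-muscle cells, 28 of the 40 members were at least 2-fold higher in control *Myog*-high cells (11.9% of 2891 genes) and 22 in *Smo* cKO (11.6% of 2933 genes), while *Tpm3* was lower in both. The minimum level for a call was reached by 29 and 24 members. After each cell was thinned to 2000 UMIs, *Myh3* was found in 37.2% of control *Myog*-high cells (28.3 to 46.8) and 25.6% of *Smo* cKO ones (19.8 to 32.0), against 0.316% and 0.395% of connective and 0.516% and 0.612% of hematopoietic cells. Unthinned, at medians of 9345 and 9724 UMIs, the *Myog*-high shares were 49.2% and 44.0%, and at 11958 and 14417 UMIs the connective shares were 1.74% and 2.68%. *Myog* UMIs themselves were found in 4.39% of control and 11.7% of *Smo* cKO connective cells and in 1.51% and 4.67% of hematopoietic cells. The ratio between members was not constant across classes. *Tnni2* counted 0.133 UMIs per *Acta1* UMI in control *Myog*-high cells, 0.197 in connective and 1.03 in hematopoietic cells, and 0.0963, 0.210 and 0.797 in *Smo* cKO. *Des* ran at 0.339, 2.11 and 0.457 in the control and at 0.429, 1.99 and 0.525 in *Smo* cKO.

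The comparison between genotypes asks whether loss of *Smo* in Sox9+ lineage cells goes with a different sarcomere program in callus muscle cells. Summed over the members, the level in *Myog*-high cells was 27614 CPM in the control and 21836 CPM in *Smo* cKO, a log2 difference of -0.34 (-0.36 to -0.32), beside a median over all genes of 0.06. By list, the summed adult fast isoforms were at -0.60, the shared members at -0.29, the slow isoforms at -0.14 and the embryonic isoforms at -0.08. Abundant members weigh most in these sums. The medians over members with at least 50 CPM in a pool were -0.63, -0.31, -0.54 and -0.62 in the same order. The order of the sums depended on the cells kept. With the upper limit of 2000 genes the adult fast sum was at -0.06 (-0.18 to 0.06) and the shared sum at -0.19. The slow sum was then at 0.17 and the embryonic sum at -0.23 (-0.34 to -0.11). Without the cell with the most member UMIs in each pool the 4 sums were at -0.39, -0.23, -0.05 and 0.01. In the embryonic sum of all *Myog*-high cells *Actc1* (0.46) stood against *Myh3* (-0.81), *Myl4* (-0.62) and *Myh8* (-1.52). By the 2-fold rule no member was higher in *Smo* cKO, where 0.693% of 2310 genes were called higher. 5 members were lower (*Myh1*, *Myh8*, *Tnnc2*, *Tnni2* and *Actn2*), beside 0.779% of genes called lower. *Tnnc2* counted 1006 control UMIs (771 CPM) and 688 *Smo* cKO UMIs (282 CPM), a log2 difference of -1.45. *Tnni2* was at 550 and 259 CPM (-1.09), *Actn2* at 85.1 and 41.0 CPM (-1.05), *Myh8* at 139 and 48.8 CPM (-1.52) and *Myh1* at 59.0 and 15.2 CPM (-1.96). *Actc1* was the member furthest in the other direction among those with at least 50 CPM, at 2021 and 2774 CPM (0.46, 0.39 at the lower bound), and *Tnni1* was at 982 and 1120 CPM (0.19). *Tcap*, which caps titin at the Z-disc, lay below the minimum of 50 CPM and had 41 control and 10 *Smo* cKO UMIs (31.4 and 4.10 CPM).

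Several of these differences moved when 1 control cell was left out. The cell had 32624 UMIs, 4 *Myog* UMIs and a barcode found in both libraries, and 16.8% of its UMIs were of sarcomere genes. It held 51.8% of the *Tnnc2* and 37.0% of the *Tnni2* UMIs of its pool. Without the cell with the most member UMIs in each pool no member with at least 50 CPM was 2-fold lower. The log2 difference of the sum was -0.20. Below that minimum *Tcap* stayed lower (37 and 3 UMIs, -4.55), as did *Myom3* (23 and 17 UMIs, -1.36). *Tnnc2* was then at -0.63 (-0.81 to -0.46), *Tnni2* at -0.62, *Myh8* at -0.55 and *Myh1* at -0.93, while *Actn2* moved little, to -0.94 (-1.38 to -0.50). Leaving out the shared barcodes took away 6 control cells, among them that cell, and 9 *Smo* cKO cells. The sum was then at -0.15 and *Tnnc2* at -0.48. *Myh8* (67.4 and 23.1 CPM, -1.54) was still called 2-fold lower, and *Myom2* (64.2 and 25.0 CPM, -1.36) was called as well. *Myh1* (29.3 and 8.78 CPM, -1.74) lay below the minimum of 50 CPM. With each cell thinned to 2000 UMIs before its *Myog* level was read the libraries differed by less than 0.01. *Actc1* kept its sign without the top cell (0.49) and without the shared barcodes (0.50), but with the upper limit of 2000 genes it turned to -0.28 (-0.45 to -0.10). The sum at 0 *Myog* UMIs was 2428 and 2532 CPM, in cells with 2 to 9 *Myog* UMIs it was 25667 and 6073 CPM, and in cells with 10 or more it was 28289 and 24501 CPM. The gap of the sums was thus widest at 2 to 9 *Myog* UMIs, in pools of 35 and 37 cells of which the control one held the cell described. That cell gave 5488 of the 8626 sarcomere UMIs of this control pool, so the gap there leaned on it. The median shares per cell were 0.592% and 0.439%. The *Smo* cKO library also had more muscle cells, a higher *Myog* level and more connective cells with a *Myog* UMI, and the part of these in the differences was not tested.

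**Figure D5:**
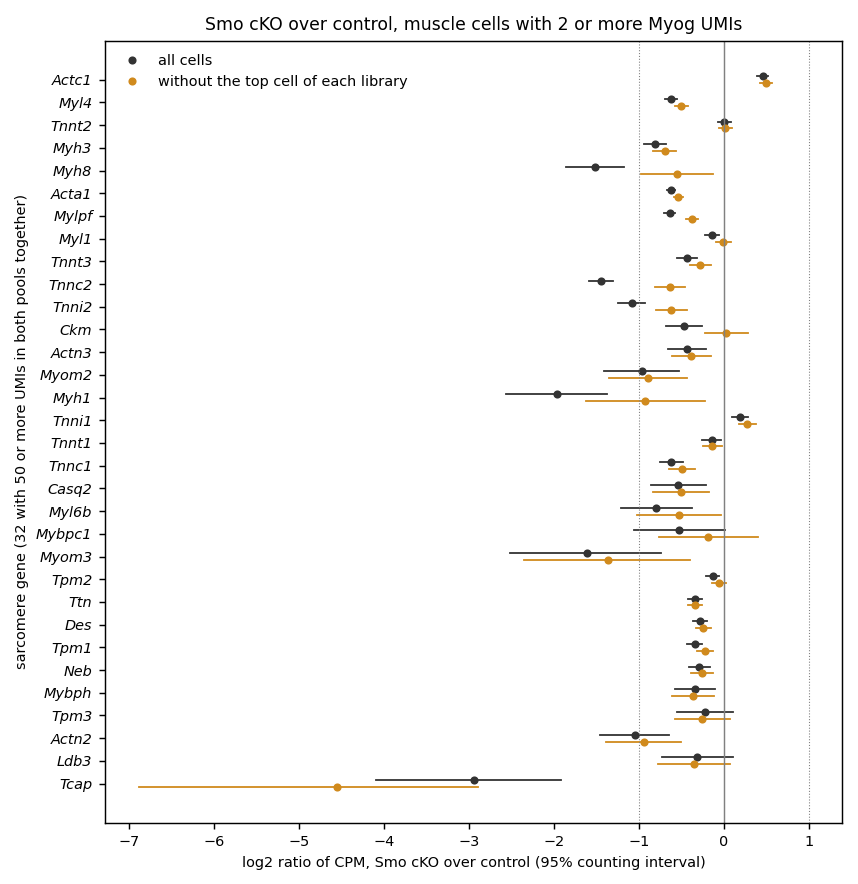
Log2 ratio of CPM, *Smo* cKO over control, in *Myog*-high muscle cells for the 32 sarcomere genes with at least 50 UMIs over both pools, with 95% counting intervals, black for all cells and orange without the cell with the most sarcomere UMIs in each library, and dotted lines at 2-fold. *Tnnc2*, *Tnni2*, *Myh8* and *Myh1* move toward 0 without that cell, and *Actc1* stays above 0.

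Some genes of 3 related lists were also higher in *Myog*-high cells, beside the 10.4% (control) and 8.66% (*Smo* cKO) of all genes tested given above. Of 19 genes of calcium handling and excitation, 10 (control) and 11 (*Smo* cKO) reached the minimum of 50 CPM. Of the 19, 8 were at least 2-fold higher in *Myog*-high cells than without *Myog* in the control and 9 in *Smo* cKO, and none was lower. A gene of these lists could also reach the minimum through the *Myog*-high pool alone. *Cacng1*, a calcium channel subunit, was at 55.9 and 229 CPM in the control and 44.2 and 187 CPM in *Smo* cKO. *Sln*, a small inhibitor of the calcium pump, was at 4.87 and 284 CPM and at 3.74 and 120 CPM, and *Atp2a1*, the fast calcium pump, at 18.2 and 143 CPM and at 9.35 and 127 CPM. Among 26 sarcomere assembly genes, 12 and 9 reached the minimum, 11 and 8 were higher and none was lower. The chaperone *Cryab* was at 136 and 590 CPM and at 158 and 640 CPM, and the filamin *Flnc* at 77.8 and 244 CPM and at 74.2 and 161 CPM. The actin depolymerizing *Cfl2*, at 260 and 441 CPM and at 252 and 445 CPM, stayed under 2-fold in both libraries. Of 13 muscle energy genes 5 reached the minimum and 4 were higher in each library. *Mb*, myoglobin, went from 1.22 to 126 CPM and from 3.74 to 151 CPM, and *Eno3*, the muscle enolase, from 90.0 to 233 CPM and from 59.8 to 135 CPM, while *Ldha*, a lactate dehydrogenase of many tissues, was at 317 and 378 CPM and at 371 and 417 CPM.

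Relatives of the members outside striated muscle, with the smooth muscle genes *Acta2* and *Myh11* among them, mostly behaved differently. Of these 13 actins, alpha-actinins, myosins and tropomyosins, only *Acta2*, the smooth muscle actin, was called higher with *Myog*. Its levels were 611 and 1897 CPM in the control and 744 and 2543 CPM in *Smo* cKO. The cytoplasmic actins *Actb* (2563 and 1470 CPM; 2773 and 1513 CPM) and *Actg1* (2597 and 1623 CPM; 3136 and 2065 CPM) were less abundant in *Myog*-high cells, by under 2-fold, and *Tpm4* was called lower in *Smo* cKO. In *Myog*-high cells the sarcomeric *Acta1* and *Actc1* each exceeded *Actb* in both libraries.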

How the data were processed

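The deposited files are matrices of raw UMI counts per gene and barcode, which the authors made with Cell Ranger 3.0.2 at default parameters on mm10, without normalization. Everything else was computed from them with numpy 2.4.6 and scipy 1.17.1 under Python 3.11.15, and drawn with matplotlib 3.10.9. Cells with at least 200 genes and under 10% mitochondrial UMIs were kept. The upper limit of 2000 genes stated in the methods was not applied, since it removes most *Myog*-high cells, and was run as an alternative. Doublets were not called.

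Cells were assigned by counts of detected markers: connective 7 of 10, hematopoietic 4, endothelial 4, mural 4, epithelial 3 or glial 3, with exactly 1 class passed and fewer than 2 muscle markers. These thresholds were set after the data were seen. The members and all gene lists were chosen with earlier results of these data known.

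UMIs were summed per pool and divided by the UMIs of the pool to give CPM. Ratios have exact conditional Poisson intervals and shares exact Clopper-Pearson intervals, at 95%. Both cover counting error only. Cells of 1 library are not replicates, so no p-value is given. A gene was called at 2-fold or more among genes with at least 50 CPM in 1 pool. The rule was run on simulated Poisson counts of the *Myog*-high pool and the pool without *Myog*. Of 200 genes changed 4-fold it found 195 (control) and 190 (*Smo* cKO). It called 2 of 2082 and 0 of 2181 unchanged genes. The simulation held no spread between cells and no change near 2-fold, so it does not cover calls that rest on 1 cell. The genes given at every *Myog* level are the 6 myosin heavy chains, the 5 embryonic isoforms and the 4 members of highest mean CPM in *Myog*-high cells in each list, and of the other lists the 3 genes of highest CPM. Promoters are from RefSeq (GRCm38.p6); a gene's coordinates are from GENCODE vM21. Promoters of *Actn3*, *Tnnt3*, *Tnni2*, *Neb*, *Myom2* and *Tcap* were not used here.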

Additional observations from a re-analysis of the deposited data

How the results depend on the processing

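No paired analysis was possible because each genotype has 1 library and no result comes from a test. Leaving out barcodes found in both libraries and keeping muscle cells with connective markers were chosen after seeing the data. The values that moved most are given by setting. With an upper limit of 2000 genes the log2 difference of the summed members between *Myog*-high cells and cells without *Myog* was 2.94 in the control and 2.71 in *Smo* cKO, the share of *Myh3* and *Myh8* among heavy chain UMIs was 95.3% and 77.8%, the log2 ratio of *Smo* cKO over control was -0.12, and 3 members were 2-fold lower in *Smo* cKO. An upper limit of 6000 genes gave a ratio of -0.32. A gate of at least 3 muscle markers gave a control difference of 3.57. Without muscle cells that held markers of another class the *Smo* cKO difference was 2.91 and the ratio -0.43. Thinning to 2000 UMIs gave differences of 1.85 and 2.95, 18 control members higher with *Myog*, heavy chain shares of 97.1% and 93.3%, a ratio of -0.00036 and 1 member lower. Scaling by the median gene gave a ratio of -0.39. Without the cell with the most member UMIs the control difference was 3.33, the control heavy chain share 95.1%, the ratio -0.20 and the members lower 0. Without barcodes in both libraries these were 3.35, 95.1%, -0.15 and 2. With connective-marker cells kept the differences were 3.10 and 2.39, the ratio -0.49 and the members lower 3. With no minimum of 50 CPM, 35 *Smo* cKO members were above non-muscle cells and 9 members were lower in *Smo* cKO. The summed members were higher with *Myog* in both libraries under every alternative run, from 1.85 to 3.57 in the control and from 2.39 to 3.14 in *Smo* cKO. Except where a setting takes cells away, the cause of each shift was not tested. Pools of 15 to 216 cells limit what low members can show.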

Other observations

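Among kept barcodes, 22 control and 28 *Smo* cKO ones had at least 5% of their UMIs on the 40 sarcomere genes. Of these, 14 and 18 were *Myog*-high muscle cells, but 2 control and 7 *Smo* cKO barcodes had 0 or 1 *Myog* UMI and under 1% mitochondrial UMIs. These 9 barcodes were shallow, at medians of 3264 and 2003 UMIs, and none of them was shared between the libraries. In the 7 *Smo* cKO barcodes *Acta1* was at 28390 CPM, *Tnnc2* at 9463 CPM, *Actc1* at 1158 CPM and *Myl4* at 6695 CPM. In the 18 *Smo* cKO *Myog*-high cells with the same minimum share *Acta1* was at 10919.7 CPM, *Tnnc2* at 1813 CPM, *Actc1* at 7886 CPM and *Myl4* at 7626 CPM. The actins and *Tnnc2* thus lay far apart and *Myl4* did not, but the *Myl4* level rested on 1 barcode. That barcode held 96 of the 133 *Myl4* UMIs of the 7 barcodes, and 17 of their 23 *Actc1* UMIs. *Ttn* had 4 UMIs in the 7 barcodes and 493 in the *Myog*-high cells, and *Mb* was at 4631 and 355 CPM. The 2 control barcodes were unlike each other. One had 187 *Acta1* UMIs and 0 *Actc1* UMIs among 5384, and the other had 9 and 2 among 1144. These barcodes were picked for their sarcomere share after the data were seen, and their values are given as a description.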
